A study of Rattus norvegicus with 8 samples.

Results

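The genes described here encode the nuclear-encoded subunits of the respiratory chain in rat liver: NADH dehydrogenase (complex I), succinate dehydrogenase (complex II), the cytochrome bc1 complex (complex III), cytochrome c oxidase (complex IV) and ATP synthase (complex V). They were taken from the deposited count table by symbol (Nduf subunits, Sdha to Sdhd, Uqcr, Cox4 to Cox8 and Atp5 genes) among protein-coding rows. Of the 30562 genes in the table, 94 matched, and 85 of these had 10 or more reads summed over the 8 libraries. The 85 comprise 41 genes of complex I, 4 of complex II, 7 of complex III, 14 of complex IV and 19 of complex V, on 20 chromosomes. A filter on low counts left 81 for testing (39, 4, 7, 13 and 18 in complexes I to V). Those left out include Cox6a2, Ndufa3-ps3 and a copy of Atp5mk-ps2, with 24, 12 and 29 reads over all libraries.

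Per the labels, livers came from male Wistar rats of 160 g at the start. The labels assign 20 rats to 4 groups of 5, and 2 rats of each group have libraries here. The HCB group received hexachlorobenzene, a fungicide no longer in use that persists in the environment and is porphyrinogenic in rodent liver, at 100 mg/kg by gavage 3 times a week for 30 days. The AT+HCB group received HCB and atorvastatin, a statin that blocks cholesterol synthesis. The AT group received atorvastatin alone, at a stated 5 mg/kg per day in drinking water, and the Control group received vehicle. All rats were killed on day 37. The drinking-water recipe in the labels, 5 mg in 20 mL for each rat daily, is higher than the stated dose per body weight, so the dose received is uncertain. The HCB and AT+HCB libraries are called HCB-labelled here, and the AT and Control libraries unexposed.

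The respiratory chain passes electrons from NADH and succinate through complexes I to IV to oxygen and pumps protons across the inner mitochondrial membrane, and ATP synthase uses the returning protons to make ATP. Most subunits are encoded in the nucleus, made in the cytosol and imported, and they assemble with a small number of subunits encoded in mitochondrial DNA. Succinate dehydrogenase alone is wholly nuclear-encoded. Hepatocytes are rich in mitochondria and use much of this ATP for synthesis of glucose, urea and plasma proteins.

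The HCB-labelled and unexposed libraries differed in more than the label of exposure. Assigned reads were 38.4 M to 52.0 M in HCB-labelled libraries and 29.4 M to 43.8 M in unexposed ones, and reads outside exons made up 7.46% to 11.4% of reads in HCB-labelled and 15.3% to 34.04% in unexposed libraries. Reads mapping to several places made up 19.4% in HCB 1, 20.3% in Control 1 and 21.0% in AT 1. In the other libraries they made up 10.4% to 13.2%. The scaling factors (TMM) were 0.777 to 0.891 in HCB-labelled and 1.01 to 1.42 in unexposed libraries. The summed level of 6 hepatocyte markers was high in all 8 libraries. It was 94102 to 140042 CPM (read counts scaled to the normalised library size) in HCB-labelled and 51694 to 111419 CPM in unexposed libraries. Most of that sum is Alb, which was not called (0.43 ± 0.39, log2 fold change ± SE; edgeR's adjusted p = 0.387). Of the 6 hepatocyte markers, 4 were higher in HCB-labelled libraries, Cps1 by 1.79, Hnf4a by 0.94, Ttr by 1.07 and Serpina1 by 2.55 on the log2 scale, and Apoa1 was lower (−2.41). Serpina1 was low throughout, at 1.05 to 10.6 CPM over the 8 libraries. The part of the hepatocyte markers in the results below was not tested. The summed level of 5 fetal hepatocyte markers, Afp and Igf2 among them, was 148 to 333 CPM in HCB-labelled libraries and 37451 to 51247 CPM in unexposed ones. Y-linked genes stood at 135 to 217 CPM in HCB-labelled and 0.900 to 1.96 CPM in unexposed libraries, although the labels call every rat male. Erythroid genes (9 of 10 lower) summed to 513 to 1493 CPM in HCB-labelled and 2186 to 5346 CPM in unexposed libraries, and neutrophil genes (6 of 6 lower) to 0.401 to 3.17 CPM in HCB-labelled and 129 to 218 CPM in unexposed ones. Cycling genes (4 of 4 lower) summed to 13.04 to 40.3 CPM in HCB-labelled and 198 to 483 CPM in unexposed libraries, and mesenchymal genes (5 of 6 lower) to 265 to 359 CPM in HCB-labelled and 739 to 2556 CPM in unexposed ones. Macrophage markers (1 of 6 higher and 1 lower) overlapped, at 244 to 407 CPM in HCB-labelled and 207 to 356 CPM in unexposed libraries. The 5 adult male hepatocyte genes were all higher, at 5088 to 6559 CPM in HCB-labelled and 269 to 520 CPM in unexposed libraries. An effect of HCB therefore cannot be told apart from these differences, and every direction below compares libraries as labelled. In whole liver, fewer cells of a type and less RNA per cell cannot be told apart.

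Promoters of 68 of the 85 genes were found in RefSeq (build GRCr8; 250 bases before to 50 after the start), 67 by symbol and 1 by synonym. A total of 4 motifs of factors known for respiratory chain promoters were searched on both strands: GCGC, any base, then TGCGC (NRF1), CCGGAAG (GABPA), AAGATGGCG (YY1) and TCAAGGTCA (the oestrogen-related receptors). No motif contains another. For each complex the promoter with a motif whose gene had the smallest p in the average HCB comparison is shown, with the promoter of Atp5f1b, the gene with the highest level per length and no match. Capitals mark matches: YY1 in Ndufs7 and Atp5mf, NRF1 in Sdha, and GABPA in Uqcrq and Cox5b.

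Ndufs7: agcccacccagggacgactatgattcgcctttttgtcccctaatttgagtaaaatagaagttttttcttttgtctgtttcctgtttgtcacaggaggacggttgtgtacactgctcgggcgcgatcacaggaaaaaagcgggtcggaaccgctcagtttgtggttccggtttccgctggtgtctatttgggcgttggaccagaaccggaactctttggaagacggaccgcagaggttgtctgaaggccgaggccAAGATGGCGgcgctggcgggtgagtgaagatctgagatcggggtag
Sdha: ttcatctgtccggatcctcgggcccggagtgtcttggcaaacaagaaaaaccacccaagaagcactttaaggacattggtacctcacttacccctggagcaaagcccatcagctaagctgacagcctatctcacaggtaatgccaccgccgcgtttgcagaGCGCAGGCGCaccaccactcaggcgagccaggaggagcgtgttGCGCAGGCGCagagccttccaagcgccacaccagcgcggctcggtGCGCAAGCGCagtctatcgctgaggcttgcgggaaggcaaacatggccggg
Uqcrq: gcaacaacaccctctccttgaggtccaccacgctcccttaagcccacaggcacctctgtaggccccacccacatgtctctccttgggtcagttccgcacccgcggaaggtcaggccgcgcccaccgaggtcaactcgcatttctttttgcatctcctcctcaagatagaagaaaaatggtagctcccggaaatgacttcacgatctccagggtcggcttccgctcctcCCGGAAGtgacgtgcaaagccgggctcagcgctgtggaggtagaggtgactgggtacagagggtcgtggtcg
Cox5b: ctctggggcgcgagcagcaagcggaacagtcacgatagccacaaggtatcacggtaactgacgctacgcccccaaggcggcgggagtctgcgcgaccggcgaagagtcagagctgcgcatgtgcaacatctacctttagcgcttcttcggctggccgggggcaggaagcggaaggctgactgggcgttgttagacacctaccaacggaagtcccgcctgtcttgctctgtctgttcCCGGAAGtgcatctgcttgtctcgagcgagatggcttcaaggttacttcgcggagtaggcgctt
Atp5mf: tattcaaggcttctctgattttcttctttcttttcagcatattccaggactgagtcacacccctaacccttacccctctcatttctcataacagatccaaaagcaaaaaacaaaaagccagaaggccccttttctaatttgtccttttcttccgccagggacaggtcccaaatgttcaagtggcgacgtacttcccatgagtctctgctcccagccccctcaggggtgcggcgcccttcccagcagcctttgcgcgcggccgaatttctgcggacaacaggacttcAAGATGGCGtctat
Atp5f1b: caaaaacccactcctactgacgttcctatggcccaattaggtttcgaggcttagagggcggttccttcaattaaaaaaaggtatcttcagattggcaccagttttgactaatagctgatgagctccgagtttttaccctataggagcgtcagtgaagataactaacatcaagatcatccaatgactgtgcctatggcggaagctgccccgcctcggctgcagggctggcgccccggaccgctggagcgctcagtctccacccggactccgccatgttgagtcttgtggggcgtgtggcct

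In order, the windows lie on GRCr8 at chr7:10110449-10110748 (minus strand), chr1:30764303-30764602 (plus strand), chr10:38089929-38090228 (minus strand), chr9:46417587-46417886 (plus strand), chr12:14535185-14535484 (plus strand) and chr7:1099808-1100107 (plus strand). Sdha held 3 NRF1 matches, more than any other of the 68 promoters. NRF1 matches were found in 14 of the 68 promoters (20.6%) and in 5.95% of 19005 protein-coding promoters. GABPA matches were found in 20 (29.4%, against 11.1%), YY1 matches in 10 (14.7%, against 2.27%) and the receptor motif in 2, Sdhd and Atp5mc3 (2.94%, against 0.305%). Any of the 4 motifs was present in 38 promoters (55.9%, against 17.6%). Genes with and without a motif had median log2 fold changes in the average HCB comparison of 0.90 (38 genes) and 0.91 (29 genes tested). These matches are letters in a window, not sites of binding.

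The first comparison asks what distinguishes livers labelled as HCB-exposed, averaging HCB over Control and AT+HCB over AT. Of the 81 genes, 62 were higher and 0 lower at an adjusted p threshold of 0.05 (edgeR's quasi-likelihood test, adjusted over all 16591 genes tested). Among all genes tested, 21.3% were called higher and 25.3% lower, 46.6% in all. The median log2 fold change of the 81 genes was 0.89, against −0.11 for all genes. In 60 of the 81 genes each of the 4 HCB-labelled libraries was above each of the 4 unexposed ones, which held for 21.8% of all genes, and in 0 genes was each below, as held for 25% of all genes. By complex, 30 of 39 were higher in complex I, 4 of 4 in complex II, 7 of 7 in complex III, 9 of 13 in complex IV and 12 of 18 in complex V, with medians of 0.85, 1.04, 0.72, 0.82 and 0.86. Scaled by library totals without TMM, 27 genes were higher and 2 lower with a median of 0.39, where the median of all genes moved to −0.64, so the distance between both medians was 1.03 against 1.00. Changes of single genes below are log2 fold changes of this average comparison ± standard error (SE), with edgeR's adjusted p, and gene positions are those of build mRatBN7.2. Without Control 1 the count was 39, and without Control 1 and AT 1, the libraries with most reads outside exons, 18 were higher and 0 lower. Of the 62 genes, 36 stayed called whichever single library was left out.

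**Figure D1:**
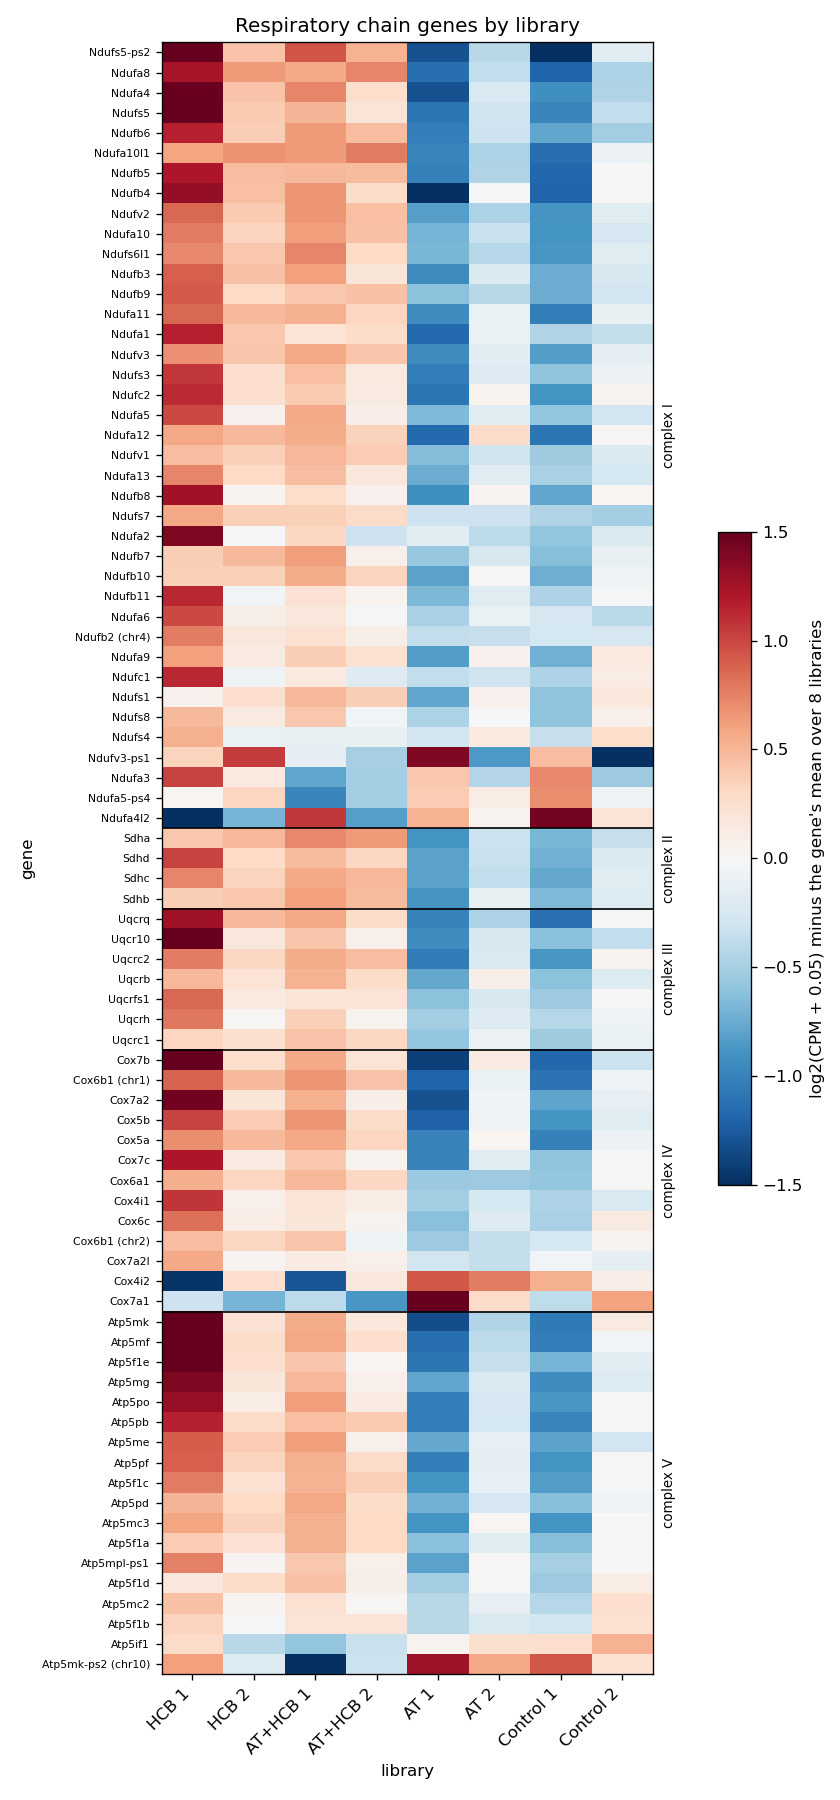
Heat map of the 81 respiratory chain genes tested (rows, by complex and falling log2 fold change) in the 8 libraries (columns); colour is log2(CPM + 0.05) minus the gene's mean over the libraries. Most genes are above their mean in the 4 HCB-labelled libraries and below it in AT 1 and Control 1, and HCB 1 holds the highest values of many genes; 62 genes are called higher with TMM scaling and 27 without it.

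**Figure D2:**
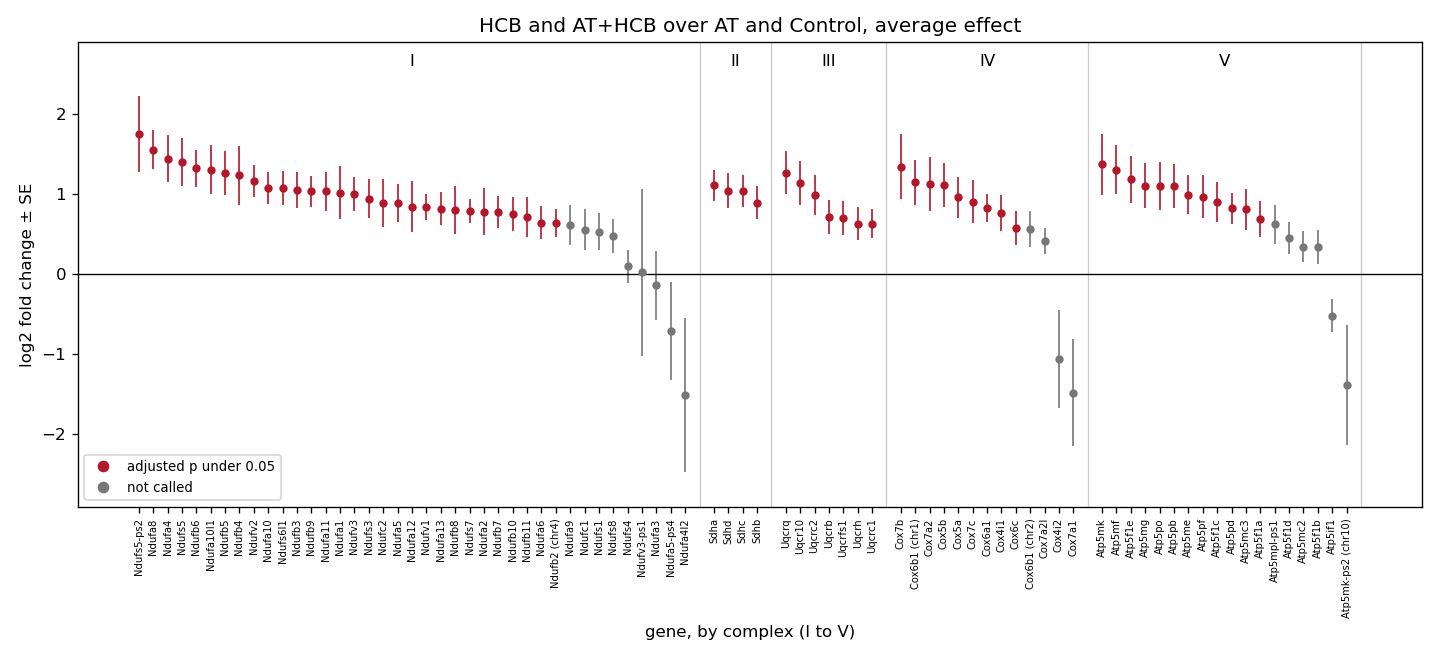
Log2 fold change of the average HCB comparison (points) with its standard error (bars) for each gene, ordered within complexes I to V; red marks an adjusted p under 0.05. The 62 called genes lie above 0, and the 7 genes below 0 are not called; without TMM scaling 27 are called higher and 2 lower.

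Summed over its genes, each complex was higher in the HCB-labelled libraries. The sum of complex I was 1504 ± 287 CPM in HCB-labelled and 812 ± 192 CPM in unexposed libraries (SD, n = 4 each), a ratio of 1.85. Complex II stood at 677 ± 48.6 CPM in HCB-labelled and 327 ± 65.9 CPM in unexposed libraries (ratio 2.07). Complex III stood at 621 ± 136 CPM in HCB-labelled and 333 ± 82.3 CPM in unexposed libraries (ratio 1.87), and complex IV at 709 ± 187 CPM in HCB-labelled and 381 ± 86.8 CPM in unexposed libraries (ratio 1.86). Complex V had the smallest ratio, 1.58, at 2464 ± 383 CPM in HCB-labelled and 1560 ± 375 CPM in unexposed libraries (SD, n = 4 each). It made up 41.3% of the summed level of all 5 complexes in HCB-labelled and 45.7% in unexposed libraries, and complex II made up 11.5% in HCB-labelled and 9.63% in unexposed libraries. The ratios were not tested against one another, and genes of high level weigh most in a sum. The median log2 fold change of complex V was 0.86, against 0.85, 0.72 and 0.82 for complexes I, III and IV. In total the genes stood at 7412 and 5176 CPM in HCB and 5996 and 5315 CPM in AT+HCB, against 2669 and 3851 CPM in AT and 2824 and 4304 CPM in Control livers. The groups did not overlap, HCB 1 was highest, and AT 1 and Control 1, with 34.04% and 27.7% of reads outside exons, were lowest. Whether the share of reads outside exons has a part in the difference was not tested. As a share of assigned reads, with no scaling, the genes took 0.609% and 0.461% in HCB and 0.466% and 0.455% in AT+HCB, against 0.379% and 0.423% in AT and 0.368% and 0.434% in Control livers. These shares did not overlap either, though the lowest HCB-labelled and highest unexposed values lie close.

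**Figure D3:**
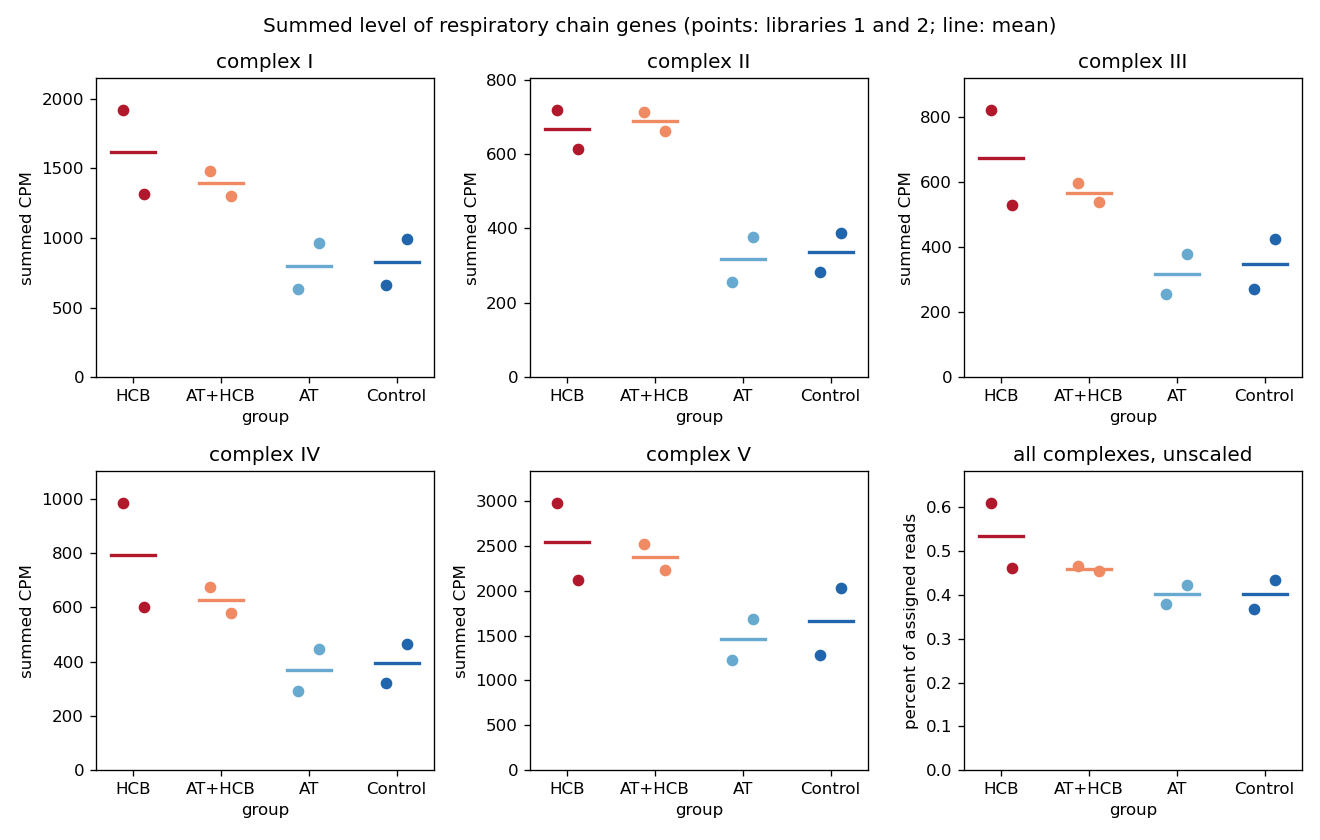
Summed CPM of the genes of each complex by group (points, libraries 1 and 2; lines, group means), and in the last panel the share of assigned reads without scaling, in percent. In each of the panels all 4 HCB-labelled libraries lie above the 4 unexposed ones. For summed CPM the ratio of means runs from 1.58 (complex V) to 2.07 (complex II). The unscaled shares lie closer, at 0.455% to 0.609% in HCB-labelled and 0.368% to 0.434% in unexposed libraries.

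Complex I takes electrons from NADH to ubiquinone. Its core subunits include those that carry the flavin and the iron-sulphur clusters. Of the 6 nuclear-encoded core genes tested 4 were higher and 0 lower (median log2 fold change 0.82). The shares of all genes called higher and lower were 21.3% and 25.3%. Ndufv2 (chromosome 9, 105690455 to 105710713), an iron-sulphur subunit of the NADH-oxidising module, stood at 89.1 and 64.2 CPM in HCB and 77.2 and 66.96 CPM in AT+HCB, against 27.5 and 35.3 CPM in AT and 26.5 and 43.1 CPM in Control livers. The 4 HCB-labelled libraries lay above all unexposed ones, with a log2 fold change of 1.17 ± 0.20 (adjusted p = 0.000945). Its neighbour in that module, the flavin-binding Ndufv1, was higher by 0.84 ± 0.16 (adjusted p = 0.00186), and Ndufs7, which holds the last iron-sulphur cluster before ubiquinone, by 0.79 ± 0.15 (adjusted p = 0.00142). Ndufs3 was higher by 0.95 ± 0.25 (adjusted p = 0.00918). Ndufs1, the largest iron-sulphur subunit, had 0.53 ± 0.23 (adjusted p = 0.0807), and Ndufs8 had 0.48 ± 0.22 (adjusted p = 0.0921); neither was called, and their groups overlapped.

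Of the other 33 genes named for complex I, 26 were higher and 0 lower (median 0.89), against 21.3% and 25.3% of all genes. Most of the 33 are accessory subunits, which build the frame around the core. The 33 also hold Ndufa4 and Ndufa4l2, described below, and the pseudogene-named Ndufs5-ps2, Ndufa5-ps4 and Ndufv3-ps1. Of these, Ndufa4 and Ndufs5-ps2 are among the 26. Ndufa8 (chromosome 3, 19386065 to 19402071), on the intermembrane-space side, stood at 48.7 and 32.2 CPM in HCB and 30.6 and 34.3 CPM in AT+HCB, against 9.39 and 15.99 CPM in AT and 8.91 and 14.9 CPM in Control livers. Its lowest HCB-labelled value was above its highest unexposed value, and its change, 1.56 ± 0.24 (adjusted p = 0.00044), had the smallest p of all 81 genes. Ndufb6 and Ndufb9, of the membrane arm, were higher by 1.33 ± 0.23 (adjusted p = 0.000961) and 1.04 ± 0.19 (adjusted p = 0.00124); 30.6% of the exonic bases of Ndufb6 and 15% of those of Ndufb9 overlap another gene on the other strand. Ndufa6 (chromosome 7, 113866382 to 113870239), the complex I gene with the highest level per length (75.1 CPM per kilobase over the 8 libraries), was higher by 0.65 ± 0.21 (adjusted p = 0.0256). Ndufs6l1, a name that RefSeq lists as a synonym of Ndufs6, was higher by 1.08 ± 0.21 (adjusted p = 0.0019), and Ndufa10 and Ndufa10l1 by 1.08 ± 0.20 (adjusted p = 0.00126) and 1.31 ± 0.30 (adjusted p = 0.00498). Ndufs4, a subunit of the NADH-oxidising module whose loss causes Leigh syndrome in humans, had a change near 0. It stood at 41.1 and 26.5 CPM in HCB and 26.3 and 26.2 CPM in AT+HCB, against 23.2 and 31.5 CPM in AT and 22.4 and 33.9 CPM in Control livers. The groups overlapped, and its log2 fold change was 0.10 ± 0.21 (adjusted p = 0.709).

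A pair of genes named for complex I stand apart in role. Ndufa4 (chromosome 4, 40002216 to 40023920) is now known as a subunit of complex IV. It stood at 124 and 59.8 CPM in HCB and 73.7 and 53.6 CPM in AT+HCB, against 17.96 and 37.98 CPM in AT and 23.5 and 32.6 CPM in Control livers, and was higher by 1.45 ± 0.29 (adjusted p = 0.00233) with no overlap of the groups. Ndufa4l2, its paralogue known for induction by hypoxia, had the lowest level per length of the complex I genes (0.168 CPM per kilobase) and 52 reads in all. Its log2 fold change was −1.51 ± 0.96 (adjusted p = 0.217), not called, and its level was below 0.5 CPM in every library.

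Complex II oxidises succinate and is shared with the tricarboxylic acid cycle. All 4 genes were higher (21.3% of all genes tested), and in each the 4 HCB-labelled libraries lay above the unexposed ones (21.8% of all genes). Sdha (chromosome 1, 28940164 to 28961535), the flavoprotein, stood at 249.6 and 266 CPM in HCB and 311 and 293 CPM in AT+HCB, against 101 and 150.1 CPM in AT and 117 and 148 CPM in Control livers. Sdhb (chromosome 5, 153264899 to 153314293), the iron-sulphur subunit, stood at 95.6 and 98.3 CPM in HCB and 114 and 103 CPM in AT+HCB, against 39.97 and 68.6 CPM in AT and 46.9 and 64.4 CPM in Control livers. Both membrane anchors followed: Sdhc (chromosome 13, 83544652 to 83566253) averaged 139 ± 15.9 CPM in HCB-labelled and 67.7 ± 14.5 CPM in unexposed libraries (SD, n = 4 each), and Sdhd (chromosome 8, 50944704 to 50954238) averaged 155 ± 39.3 CPM in HCB-labelled and 74.9 ± 14.8 CPM in unexposed libraries (SD, n = 4 each). The log2 fold changes were 1.11 ± 0.20 (adjusted p = 0.00105) for Sdha, 0.90 ± 0.20 (adjusted p = 0.0043) for Sdhb, 1.04 ± 0.20 (adjusted p = 0.00163) for Sdhc and 1.05 ± 0.22 (adjusted p = 0.0027) for Sdhd. Their changes spanned 0.90 to 1.11, and Sdha, Sdhc and Sdhd were called higher in all 18 alternative settings. In Sdha and Sdhb the AT+HCB libraries were above the HCB libraries, whereas Sdhd was highest in HCB 1.

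Complex III passes electrons from ubiquinol to cytochrome c. All 7 genes were higher, against 21.3% of all genes tested. In each the 4 HCB-labelled libraries lay above all unexposed ones, against 21.8% of all genes. Uqcrq (chromosome 10, 37586888 to 37589169), a small subunit with the highest level per length of the complex (231 CPM per kilobase), stood at 195 and 113 CPM in HCB and 119.7 and 97.1 CPM in AT+HCB, against 40.1 and 58.4 CPM in AT and 36.97 and 79.1 CPM in Control livers, with a change of 1.27 ± 0.27 (adjusted p = 0.00326). Uqcr10, another small subunit, was higher by 1.14 ± 0.28 (adjusted p = 0.00677), though HCB 1, at 105 CPM, stood far above the other HCB-labelled libraries at 38.9 to 49.2 CPM. Of the core proteins, Uqcrc2 was higher by 1.00 ± 0.25 (adjusted p = 0.00793) and Uqcrc1 by 0.63 ± 0.18 (adjusted p = 0.0142). For Uqcrc2, 46.5% of exonic bases overlap Pdzd9 on the other strand, and counting used no strand. Uqcrfs1, the Rieske iron-sulphur protein, was higher by 0.70 ± 0.21 (adjusted p = 0.018), and Uqcrb and Uqcrh, the gene of the hinge protein, by 0.72 ± 0.21 (adjusted p = 0.0176) and 0.63 ± 0.21 (adjusted p = 0.0265).

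Complex IV reduces oxygen, and several of its subunits exist as isoforms of different tissues. The widespread or liver forms Cox4i1, Cox6a1 and Cox7a2 were higher, and the forms of muscle, heart and lung, Cox4i2, Cox6a2 and Cox7a1, were below 1 CPM in every library. Cox4i1 (chromosome 19, 48721199 to 48727921), the widespread form of subunit 4, stood at 267 and 133 CPM in HCB and 146 and 137 CPM in AT+HCB, against 88.97 and 105 CPM in AT and 92.3 and 108 CPM in Control livers, with a change of 0.77 ± 0.22 (adjusted p = 0.0159). Cox4i2, the form known from lung, averaged 0.326 ± 0.218 CPM in HCB-labelled and 0.702 ± 0.178 CPM in unexposed libraries (SD, n = 4 each), with a change of −1.06 ± 0.61 (adjusted p = 0.173) and overlapping groups. The liver form Cox6a1 (chromosome 12, 41261967 to 41265041) stood at 55.4 and 47.7 CPM in HCB and 53.7 and 46.99 CPM in AT+HCB, against 25.8 and 25.98 CPM in AT and 25.3 and 38.5 CPM in Control livers, with a change of 0.82 ± 0.17 (adjusted p = 0.00307), whereas Cox6a2, the form of heart and skeletal muscle, had 24 reads in all and was not tested. The liver form Cox7a2 was higher by 1.13 ± 0.34 (adjusted p = 0.0193). Cox7a1, the form of heart and skeletal muscle, was the lowest of the complex per length (0.184 CPM per kilobase). It had 102 reads in all and a change of −1.48 ± 0.67 (adjusted p = 0.0906), not called. Cox7a2l, a relative of this pair that acts in the assembly of supercomplexes, had a smaller change, 0.42 ± 0.16 (adjusted p = 0.0561), and missed the threshold although its groups did not overlap; scaled by library totals its sign turned, to −0.12. Cox6b2, Cox6c2, Cox8a, Cox8b and Atp5mc1 were not among the rows chosen and are not analysed here.

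Among the other subunits of complex IV, Cox5b (chromosome 9, 38921967 to 38925052) stood at 90.6 and 58.9 CPM in HCB and 71.3 and 54.7 CPM in AT+HCB, against 19.5 and 43.5 CPM in AT and 24.1 and 39.7 CPM in Control livers. The groups did not overlap. It was higher by 1.11 ± 0.27 (adjusted p = 0.00719), and Cox5a by 0.96 ± 0.26 (adjusted p = 0.011). Cox6b1 is the symbol of a pair of rows. The first (chromosome 1, 85875109 to 85884001) had the highest level per length of the complex (174.9 CPM per kilobase) and was higher by 1.15 ± 0.28 (adjusted p = 0.00709). The row on chromosome 2, of 7960 exonic bases, 27.7% of which overlap Cfap276, had 0.57 ± 0.22 (adjusted p = 0.055) and was not called. Cox7b, Cox7c and Cox6c were higher by 1.35 ± 0.40 (adjusted p = 0.0222), 0.91 ± 0.27 (adjusted p = 0.0179) and 0.58 ± 0.21 (adjusted p = 0.0416). Cox7b stood at 81.5 and 29.7 CPM in HCB and 36.8 and 28.6 CPM in AT+HCB, against 9.36 and 27.2 CPM in AT and 10.9 and 19.7 CPM in Control livers. HCB 1 was far above every other library, and AT 2 was close to HCB 2 and AT+HCB 2.

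ATP synthase consists of a catalytic F1 head, stalks and a proton-conducting membrane part. In the head, 3 of the 5 subunit genes were higher (21.3% of all genes tested), and the beta and delta genes were not called. Atp5f1b (chromosome 7, 515460 to 567273), the catalytic beta subunit, had the highest level per length of all the genes (357 CPM per kilobase). It stood at 795 and 621 CPM in HCB and 716 and 719.6 CPM in AT+HCB, against 472 and 536 CPM in AT and 514 and 739 CPM in Control livers. Control 2 lay above 3 of the 4 HCB-labelled libraries, and the change was 0.34 ± 0.22 (adjusted p = 0.215), with a negative sign under scaling by library totals (−0.17). Its partner Atp5f1a, the alpha subunit, averaged 535 ± 51.2 CPM in HCB-labelled and 331 ± 75.8 CPM in unexposed libraries (SD, n = 4 each) and was higher by 0.69 ± 0.22 (adjusted p = 0.026). Atp5f1c, the gamma subunit, was higher by 0.90 ± 0.25 (adjusted p = 0.0117) and Atp5f1e, the epsilon subunit (chromosome 3, 163260476 to 163261450), by 1.19 ± 0.29 (adjusted p = 0.00707). Atp5f1d, the delta subunit, had a change of 0.46 ± 0.20 (adjusted p = 0.083) and was not called. These single-gene values were not tested against one another.

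In the membrane part and the stalks of ATP synthase, most genes were higher. Atp5mf (chromosome 12, 9421579 to 9428236), the f subunit, stood at 114 and 49 CPM in HCB and 60.3 and 48.2 CPM in AT+HCB, against 18.4 and 30.7 CPM in AT and 19.6 and 39.3 CPM in Control livers. All HCB-labelled libraries were above all unexposed ones, and HCB 1 stood well above the other HCB-labelled ones. The change was 1.31 ± 0.31 (adjusted p = 0.00567), and that of Atp5me, the e subunit, 0.99 ± 0.24 (adjusted p = 0.00684). Atp5mg and Atp5mk were higher by 1.11 ± 0.28 (adjusted p = 0.00816) and 1.38 ± 0.38 (adjusted p = 0.0143). Of the peripheral stalk, Atp5pb, Atp5po and Atp5pf were higher by 1.11 ± 0.28 (adjusted p = 0.0077), 1.11 ± 0.30 (adjusted p = 0.0119) and 0.97 ± 0.26 (adjusted p = 0.0117), and Atp5pd by 0.82 ± 0.19 (adjusted p = 0.00477); 49.2% of the exonic bases of Atp5pd overlap Kctd2 on the other strand. Among genes of the c ring, Atp5mc3 was higher by 0.81 ± 0.26 (adjusted p = 0.0244), and Atp5mc2 had 0.35 ± 0.20 (adjusted p = 0.166), not called, with a negative sign (−0.16) under scaling by library totals.

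Atp5if1 (chromosome 5, 144738950 to 144742668), the inhibitor that binds ATP synthase when it runs in reverse, had 3673 reads and a change of negative sign, and the other 6 genes with a negative sign had 414 reads or fewer. It stood at 13.4 and 8.17 CPM in HCB and 7.22 and 8.66 CPM in AT+HCB, against 11.4 and 12.9 CPM in AT and 13 and 15.7 CPM in Control livers. HCB 1 overlapped the unexposed libraries and the other HCB-labelled libraries were below all of them, and the change, −0.51 ± 0.20 (adjusted p = 0.0581), was not called. Per 100 CPM of Atp5f1b, a ratio chosen after the values were seen, the CPM of Atp5if1 was 1.68 and 1.32 in HCB and 1.01 and 1.20 in AT+HCB, against 2.41 and 2.41 in AT and 2.53 and 2.13 in Control livers. This ratio does not rest on the scaling of the libraries, its groups did not overlap, and it was not tested.

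A total of 7 of the 85 genes carry names of pseudogenes although the table calls them protein-coding, and reads from near-identical parents can reach them. Of the 5 tested, 1 was higher, near the 21.3% of all genes called higher. It was Ndufs5-ps2, at 2.01 ± 0.816 CPM in HCB-labelled and 0.584 ± 0.286 CPM in unexposed libraries (SD, n = 4 each). Its change was 1.76 ± 0.47 (adjusted p = 0.0111), beside 1.40 ± 0.30 (adjusted p = 0.00304) for Ndufs5. Atp5mpl-ps1 had 6782 reads and a change of 0.63 ± 0.24 (adjusted p = 0.0517). The lowest in complex V per length (1.61 CPM per kilobase) was the copy of Atp5mk-ps2 at chromosome 10, 42211671 to 42211979, with −1.38 ± 0.76 (adjusted p = 0.155). Values of this group are uncertain. Of the 9 matching genes below 10 reads, 6 had 0 of 329 M assigned reads, which allows up to 0.0182 CPM of unscaled depth if 3 read pairs, or 6 reads, are taken as the limit of a count of 0; this covers counting error only.

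Because counting used no strand, reads where genes overlap cannot be told apart. Exonic overlap of 10% or more was annotated for 15 of the genes tested, of which 12 were higher with a median of 0.95, and the other 66 had 50 higher with a median of 0.87. Across the 81 genes, the change was weakly related to gene length (Spearman rho −0.0729) and to mean level (0.172). These correlations are across genes, which share their libraries, and are given as descriptions. Of the 62 genes, 15 were called in all 18 alternative settings. The 13 called in 12 or fewer were Ndufa2 and Ndufa12 (8), Ndufb8 and Cox6c (9), Ndufb11 (10), Ndufa1 and Ndufa6 (11), and Ndufc2, Uqcrb, Uqcrh, Cox7c, Atp5f1a and Atp5mc3 (12).

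The pair of single comparisons, HCB over Control and AT+HCB over AT, share no library. In HCB over Control, 34 genes were higher and 0 lower (13% of all genes were higher and 13.9% lower, 26.9% in all), with a median log2 fold change of 0.99 against −0.09 for all genes. In AT+HCB over AT, 20 were higher and 0 lower (12.6% and 15% of all genes, 27.6% in all), with a median of 0.79 against −0.11. The calls held 15 genes in common, 44.1% of the 34 and 75% of the 20. In 77 of the 81 genes the sign was the same in both, 72 of them positive, and the changes correlated across the 81 genes at a Pearson r of 0.620 (Spearman rho 0.687), against r = 0.856 for all genes; both comparisons come from 1 model. The counts rest on single libraries. HCB over Control gave 1 call without Control 1 and 2 without HCB 1. AT+HCB over AT gave 0 calls without AT 1, 1 without AT+HCB 1, 4 (3 higher and 1 lower) without AT+HCB 2, and 38 without AT 2.

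In HCB over Control, 20 of 39 genes were higher in complex I, 3 of 4 in complex II, 2 of 7 in complex III, 4 of 13 in complex IV and 5 of 18 in complex V. In AT+HCB over AT, the counts were 12 of 39, 4 of 4, 2 of 7, 1 of 13 and 1 of 18. Of all genes, 13% were called higher in HCB over Control and 12.6% in AT+HCB over AT. The counts of complexes IV and V in AT+HCB over AT are not above that share. In HCB over Control, the smallest p of complexes III, IV and V belonged to Uqcr10 (1.48 ± 0.40, SE; adjusted p = 0.0192), Cox4i1 (1.00 ± 0.32; adjusted p = 0.0387) and Atp5mg (1.44 ± 0.40; adjusted p = 0.0223). In AT+HCB over AT they belonged to Uqcrc2 (1.09 ± 0.36; adjusted p = 0.0421), Cox6a1 (0.96 ± 0.25; adjusted p = 0.016) and Atp5pd (0.91 ± 0.27; adjusted p = 0.0283). Ndufa8 was higher in both, by 1.76 ± 0.34 (adjusted p = 0.00388) and 1.35 ± 0.34 (adjusted p = 0.0138).

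**Figure D4:**
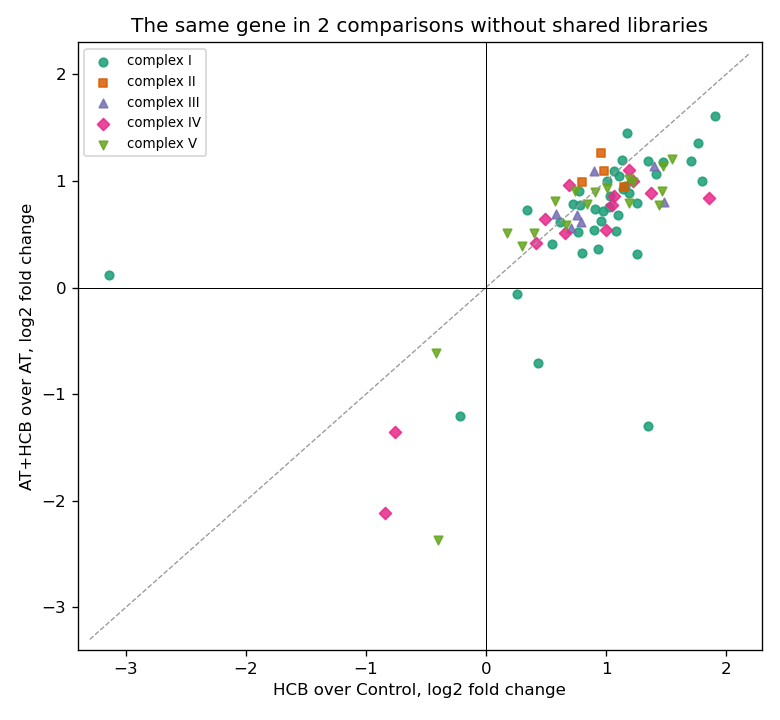
Log2 fold change of each gene in HCB over Control (x axis) and in AT+HCB over AT (y axis), by complex; the dashed line marks equal changes. Most genes lie above and to the right of 0, 72 of 81 positive in both, with medians of 0.99 and 0.79 (0.58 and 0.21 without TMM scaling).

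Atorvastatin was compared in the absence and presence of HCB. No gene of the respiratory chain was called in AT+HCB over HCB or in AT over Control, nor in the average effect of atorvastatin or the interaction: edgeR called 0 of the genes in each, 0 had an unadjusted p under 0.05, and DESeq2 called 0. Among all genes, 0% were called in each, so the absence of calls is not particular to these genes. More of the changes were negative than positive, a share that was not tested. In AT+HCB over HCB, 68 of the 81 had a negative sign with a median of −0.25 (49.7% negative and a median of 0 among all genes), but without HCB 1 the median was 0.09. In AT over Control, 59 of 81 were negative with a median of −0.08 (48.1% of all genes), which turned to 0.04 when scaled by library totals. In the average of both, 70 were negative with a median of −0.17, which was 0.0078 without Control 2 and 0.0031 without HCB 1. The interaction, AT+HCB minus HCB minus AT plus Control, had a median of −0.21, which was 0.18 without HCB 1 and also 0.18 without AT 2.

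The genes with the smallest p in these comparisons had wide errors. In AT+HCB over HCB they were Ndufa3 (−1.33 ± 0.62, SE), Atp5f1e (−0.83 ± 0.41) and Ndufa2 (−0.83 ± 0.41), each with an adjusted p of 0.892. Ndufa2 stood at 15.1 and 9.83 CPM in AT+HCB and 32.4 and 11.99 CPM in HCB livers. HCB 1 stood above the other libraries, and without it the change was 0.06. In AT over Control they were Cox7a1 (1.11 ± 0.89), Cox6a1 (−0.30 ± 0.25) and the Cox6b1 row of chromosome 2 (−0.35 ± 0.31), each with an adjusted p of 1. In the average effect they were Atp5f1e (−0.55 ± 0.29), Ndufa3 (−0.75 ± 0.43) and Atp5mk (−0.66 ± 0.37; adjusted p = 0.99 for each). For the interaction they were Ndufa4l2 (3.25 ± 1.93), Ndufa2 (−0.95 ± 0.58) and Ndufa6 (−0.57 ± 0.42; adjusted p = 1 for each).

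**Figure D5:**
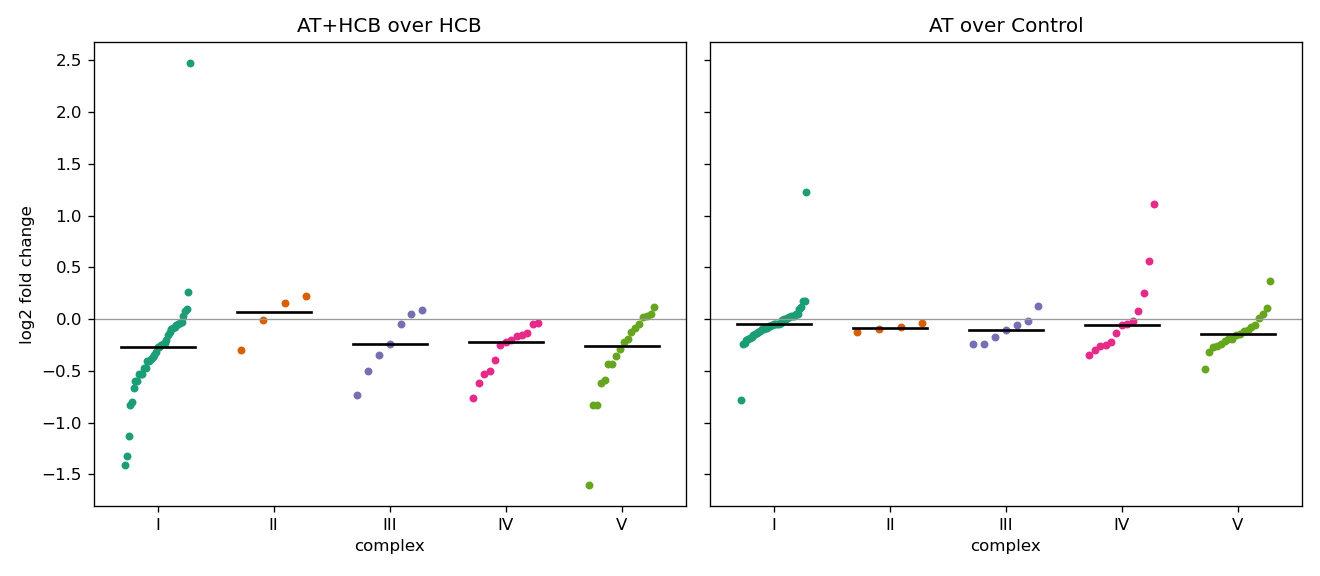
Log2 fold changes of the genes of each complex in AT+HCB over HCB (left) and AT over Control (right); points are genes and black lines medians. The medians of all 81 genes are −0.25 and −0.08; the first is 0.09 without HCB 1 and the second 0.04 without TMM scaling, and 0 genes are called in either.

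Many assembly factors, which build the complexes without being part of them, were also higher in the average HCB comparison. Of the assembly factors, 10 of 15 were higher for complex I, 9 of 12 for complexes II and III and 9 of 18 for complex IV. In each list 0 were lower, and the medians were 0.74, 0.76 and 0.50. Among all genes, 21.3% were called higher and 25.3% lower. Ndufaf4, needed for complex I, was higher by 1.16 ± 0.21 (SE; adjusted p = 0.00106), and Tmem126b and Tmem126a of the same list by 1.06 ± 0.23 and 1.23 ± 0.29. Sdhaf3, an assembly factor of complex II, was higher by 1.93 ± 0.31 (adjusted p = 0.00057), and Lyrm7 and Ttc19, which act on complex III, by 1.37 ± 0.28 and 0.81 ± 0.19. Taco1, an activator of translation of a mitochondrially encoded complex IV subunit, was higher by 1.45 ± 0.18 (adjusted p = 0.000111), and Pet100 and Cox16 by 1.13 ± 0.26 and 1.14 ± 0.27. Mitochondrial ribosomal proteins gave 42 of 73 higher and 0 lower (median 0.62). Of the 13 mitochondrially encoded subunits 3 were higher, near the 21.3% of all genes called higher, and 0 lower (median 0.69): Mt-nd2 by 1.82 ± 0.37, Mt-nd3 by 0.97 ± 0.28 and Mt-atp8 by 0.76 ± 0.27. Their summed level was 93753 to 155300 CPM in HCB-labelled libraries and 40776 to 106554 CPM in unexposed ones, with overlap.

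Exchange carriers around ATP synthase changed in opposite directions. Slc25a4 and Slc25a5 both encode adenine nucleotide translocases, which export ATP for ADP; Slc25a4 is the main form of heart and skeletal muscle. Slc25a4 stood at 7.92 and 5.13 CPM in HCB and 6.19 and 5.08 CPM in AT+HCB, against 108 and 133 CPM in AT and 102 and 175 CPM in Control livers, and fell by 4.42 ± 0.25 on the log2 scale (SE; adjusted p = 4.3e-07). Slc25a5 stood at 409 and 410.2 CPM in HCB and 413 and 387 CPM in AT+HCB, against 83.99 and 189 CPM in AT and 85.4 and 179 CPM in Control livers, and was higher by 1.59 ± 0.30 (SE; adjusted p = 0.00152). In neither gene did the groups overlap. The 5 striated muscle markers summed to 0.495 to 1.74 CPM in HCB-labelled and 0.736 to 8.70 CPM in unexposed libraries, with 0 of 3 tested called, and their part was not tested. With Tmem70, an ATP synthase assembly factor (1.03 ± 0.24), 3 of the 9 genes of this list were higher and 1 lower, and the median was 0.38. Among all genes, 21.3% were called higher and 25.3% lower, so the count of higher genes is near the background. Ucp2, an uncoupling protein of the inner membrane, fell by 1.75 ± 0.18 on the log2 scale (adjusted p = 2.39e-05), the 1 call among 3; Slc25a27 (−0.79 ± 0.52) and Slc25a14 (−0.32 ± 0.42) were not called.

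For genes that feed electrons into the chain or supply its carriers, counts are read beside the 21.3% of all genes called higher and the 25.3% called lower. Sqor, which passes electrons from sulphide to ubiquinone, stood at 55.7 and 58.9 CPM in HCB and 54.04 and 65.5 CPM in AT+HCB, against 4.07 and 5.00 CPM in AT and 3.58 and 4.05 CPM in Control livers, and was higher by 3.81 ± 0.18 (SE; adjusted p = 1.01e-07). Its change was larger than that of any subunit tested, and the groups did not overlap. In its list of carriers outside the pattern, 3 of 11 were higher, Aifm1 (0.73 ± 0.21) among them, and 1 lower, the glycerol-3-phosphate dehydrogenase Gpd2 (−0.72 ± 0.19), with a median of 0.45; the count of higher genes is near the background. Of 13 genes of coenzyme Q synthesis and function 4 were higher, also near the background: Coq10a (1.69 ± 0.24) and Coq9 (0.92 ± 0.16), which had the smallest p of the 4, Coq3 (1.06 ± 0.27) and Coq8a (1.04 ± 0.21). Pdss1, which makes the side chain, was lower (−1.54 ± 0.25), and the median was 0.51. In the tricarboxylic acid cycle 7 of 14 were higher, Fh (1.07 ± 0.24) and Ogdh (0.81 ± 0.21) among them, and Idh2 was lower (−1.06 ± 0.18); the median was 0.53.

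Of 20 regulators of mitochondrial gene expression, 6 were higher and 5 lower (median 0.19), near the shares of all genes called higher (21.3%) and lower (25.3%). Ppargc1a, the coactivator known as a driver of respiratory chain genes, stood at 2.72 and 3.60 CPM in HCB and 2.73 and 3.67 CPM in AT+HCB, against 12.9 and 23.1 CPM in AT and 12.5 and 18.1 CPM in Control livers, a change of −2.38 ± 0.25 (SE; adjusted p = 3.5e-05) opposite in sign to the median of the subunits. The groups did not overlap. Polg, the mitochondrial DNA polymerase, fell by 1.18 ± 0.18 and Tfb2m, a mitochondrial transcription factor, was higher by 1.14 ± 0.19. Of the factors whose motifs were searched, and which were named after their values were seen, Nrf1 was lower (−0.96 ± 0.19; adjusted p = 0.00191) and Yy1 higher (0.48 ± 0.15; adjusted p = 0.0245). Gabpa was not called (−0.03 ± 0.15; adjusted p = 0.883). Of the oestrogen-related receptors in the list, Esrrg was higher (0.68 ± 0.16; adjusted p = 0.00552), and Esrra, at 0.0474 to 1.41 CPM over the libraries, was not called (−0.12 ± 0.78; adjusted p = 0.912).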

How the data were processed

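Per the labels' protocols, liver RNA was sequenced with 150 bp paired reads; the submitters' processing notes name fastp 0.23.4 and STAR 2.7.10b. Per the file headers, featureCounts 2.0.6 counted reads over exons of Ensembl release 111 (mRatBN7.2) with no strand option. The deposited values are raw counts by gene. All assignment classes add up to 2.04 times the stated reads, so mates appear to have been counted singly. All columns of per-sample values were used (0 left out).

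Tests used edgeR 4.0.16 under R 4.3.3 (TMM, filterByExpr on 4 groups, robust quasi-likelihood test, 1 model of 4 groups, 4 residual degrees of freedom, Benjamini-Hochberg adjustment over 16591 genes). CPM uses TMM-normalised library size. With 2 libraries in each group, p-values rest on a spread shared by all groups (biological coefficient of variation 0.295). Alternatives were DESeq2 1.42.0, other scalings and filters, a length offset, a replicate block and each library left out. Promoters came from RefSeq (GRCr8). Figures used matplotlib 3.10.9.

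The genes, gene lists and tests were chosen with earlier results of these data known. Genes were named by rule: all isoform families and Sdh genes, up to 4 called genes with the smallest p in each complex and HCB comparison, 3 in each atorvastatin comparison, the highest and lowest level per length in each complex, and up to 3 genes of each other list. Other genes were named after their values were seen. The steps were tested on simulated data. One withheld item is not reported here.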

Additional observations from a re-analysis of the deposited data

How the results depend on the processing

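All 62 genes called in the average HCB comparison had a positive change in each of 18 alternatives, 15 were called in all of them, and 36 were kept in every fit that leaves out 1 library. Scaled by library totals without TMM, 8 genes were called in HCB over Control (median 0.58). In AT+HCB over AT 2 were called (1 higher and 1 lower, median 0.21), and in the average 29 (27 higher and 2 lower, median 0.39). The median of all genes moved to −0.53, −0.73 and −0.64. Scaling by totals does not correct for library composition, and which scaling fits these libraries better was not tested. Without a filter on low counts, 57 were called in HCB over Control and 43 in AT+HCB over AT. Without Control 1 and AT 1, the counts were 1, 0 and 18. Leaving out each library in turn gave 1 to 48 calls in HCB over Control, 0 to 38 in AT+HCB over AT (median 0.51 to 1.19) and 39 to 66 in the average; the interaction median ranged from −0.50 to 0.18 and that of AT over Control from −0.41 to 0.25. The lone library of an arm is then assumed to vary like the other groups, and the cause was not tested. DESeq2 gave 51, 28 and 65 calls. With a replicate block the counts were 31, 17 and 60, against 34, 20 and 62. Replicate differences correlated at 0.269 between AT and Control and at −0.051 to 0.054 between the other pairs of groups. Whether the replicate numbers mark pairs of libraries was not tested. A fit of only the groups compared gave 37 and 26 calls in the single comparisons and cannot be made for the averages and the interaction, which use all 4 groups.

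Signs turned for single genes that were not called. Cox6a1 in AT over Control was 0.035 without Control 2 (−0.58 to 0.035 with 1 library left out), Cox7a1 in that comparison −0.38 without Control 1 and AT 1, and Ndufa2 in AT+HCB over HCB 0.061 without HCB 1 (−1.37 to 0.061). In the average HCB comparison, scaling by library totals gave −0.12 for Cox7a2l, −0.16 for Atp5mc2 and −0.17 for Atp5f1b, and Slc25a14 was 0.11 without Control 1 and AT 1 and 0.0081 without Control 1 (−0.65 to 0.0081 with 1 library left out). Of 1854 values of named genes under alternatives, 1636 kept sign and call, 201 lost the call, 9 gained it and 8 turned sign. Depth limits the rare isoforms: Cox6a2, Cox7a1 and Ndufa4l2 had 24, 102 and 52 reads over all libraries.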
